A study of Mus musculus with 6 samples.

Results

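Neuregulins and the other ligands of the EGF family signal through the ErbB receptors, and 8 genes of this system were followed here: the ligand genes Nrg1, Nrg4, Hbegf and Btc and the receptor genes Egfr, Erbb2, Erbb3 and Erbb4. They were taken by gene symbol, and every probe set (a group of array probes for 1 transcript) annotated with a single symbol of the 8 was included, dim ones too. This gave 18 probe sets, 7 for ligands and 11 for receptors, out of 45037 on the array, where 1 symbol per probe set named the transcript for 34945. The genes were chosen by family membership, but by an analysis that had already seen the measured differences between hearts with and without Cre on these same arrays. Those differences are therefore described here and not tested.

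The values come from the apex of 6 hearts, 1 Affymetrix array each, from male mice 6 to 7 weeks of age. Every mouse carried the genotype Fog2flox/delta, that is 1 floxed and 1 deleted allele of Fog2 (official symbol Zfpm2), which encodes a cofactor of GATA transcription factors. In 3 of the mice an alpha MHC Cre transgene was also present (hearts aMHC_Cre 1 to 3), and 3 had no Cre (hearts no_Cre 1 to 3). The alpha MHC promoter drives Cre recombinase in cardiomyocytes, so the floxed segment can be removed in those cells and not in vessels, endocardium, fibroblasts or nerves. The hearts without Cre had the deleted allele too and were not wild type, and Cre alone, on a background without the floxed allele, was not included. What Cre does by itself and what the deletion does cannot be told apart. The comparison asks which transcripts differ in the adult heart when this Cre is present.

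In the heart, neuregulin 1 is made mainly by endothelial and endocardial cells and binds ErbB4 on cardiomyocytes. ErbB4 pairs with ErbB2, a receptor without a ligand of its own, and this pair is needed for trabeculation of the embryonic ventricle and supports survival of adult cardiomyocytes. ErbB3 binds neuregulins but has little kinase activity and is prominent in Schwann cells, while heparin-binding EGF (Hbegf) and betacellulin (Btc) bind both the EGF receptor and ErbB4, and neuregulin 4 binds ErbB4.

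Array medians lay between 5.72 and 5.81 on the deposited log2 scale. The targeted gene Zfpm2 had 2 probe sets that moved in opposite directions, by -0.88 ± 0.13 (SE) and by 1.68 ± 0.11, with the part of the gene each one reads not given in the sources used here. Of 8 cardiomyocyte markers all were bright, from 12.3 for Ryr2 to 13.9 for Myh6 without Cre, near the array maxima of 13.97 to 14.00. None of them passed in the limma fit described below (0 at an unadjusted p under 0.05). In bulk tissue, a change in the number of cells of a type and a change of RNA per cell cannot be told apart.

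Across the 18 probe sets, 7 of them of Egfr, 13 had a higher and 5 a lower mean with Cre. Over all 45037 probe sets 47.5% had a higher mean. The median difference was 0.12 for the 18 against -0.02 over all, and 0.06 against -0.01 with 16 added to the unlogged signal. On 5 probe sets the groups did not overlap, 4 of them higher with Cre (Nrg1, both of Btc and 1 of Egfr) and 1 lower (Erbb3). Over all probe sets 19.5% did not overlap (9.44% higher and 10% lower). By far the widest separation was that of Nrg1, with a gap of 2.34 between the groups, while the other 4 gaps were 0.02 to 0.25.

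RefSeq promoter sequences (assembly GRCm38.p6) were at hand for 5 of the 8 genes: Btc, Egfr, Erbb2, Erbb4 and Nrg4. Because Fog2 acts through GATA factors, the 250 bases before each gene start were searched on both strands for GATA-type hexamers, that is the letters GATA with an A or T before them and an A or G after them, 4 words in all, with overlapping matches each counted. Shown are the promoters of Btc and Egfr, the genes among these 5 with a probe set on which the groups lay apart, and that of Nrg4, the only one of the 5 that held a hexamer (in capitals, 244 to 239 bases before the start). Each is written 5′ to 3′ along the gene. The Btc promoter is chr5:91402995-91403244 (minus strand), that of Egfr chr11:16751953-16752202 (plus strand) and that of Nrg4 chr9:55283626-55283875 (minus strand).
Btc: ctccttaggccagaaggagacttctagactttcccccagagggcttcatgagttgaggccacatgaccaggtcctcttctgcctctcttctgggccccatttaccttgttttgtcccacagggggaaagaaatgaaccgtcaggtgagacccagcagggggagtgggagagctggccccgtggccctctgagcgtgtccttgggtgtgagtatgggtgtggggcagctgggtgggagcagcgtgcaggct
Egfr: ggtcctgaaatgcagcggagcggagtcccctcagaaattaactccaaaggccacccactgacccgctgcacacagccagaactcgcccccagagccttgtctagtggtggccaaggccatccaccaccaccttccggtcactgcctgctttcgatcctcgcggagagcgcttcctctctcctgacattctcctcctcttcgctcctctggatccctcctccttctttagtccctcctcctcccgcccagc
Nrg4: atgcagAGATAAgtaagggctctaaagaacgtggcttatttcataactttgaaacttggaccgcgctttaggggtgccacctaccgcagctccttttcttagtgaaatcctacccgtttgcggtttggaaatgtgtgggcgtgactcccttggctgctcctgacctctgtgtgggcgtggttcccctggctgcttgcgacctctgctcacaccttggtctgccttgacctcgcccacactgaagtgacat
Of all 32851 promoters of this length in the table, 26.5% held at least 1 of these hexamers. The matches are a description of these letters and say nothing about binding.

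Nrg1 was read by a single probe set (1456524_at), which was low without Cre and clearly higher with it. The 3 hearts without Cre read 3.59, 3.82 and 3.46, and the 3 with Cre read 6.17, 6.31 and 6.18. The groups were far apart, and each group was tight: the values spanned 0.37 without Cre and 0.14 with Cre. The means were 3.62 ± 0.19 (SD, n = 3) and 6.22 ± 0.08, a difference of 2.59 ± 0.13 (SE). On the unlogged scale the signal went from 11.0 to 14.2 units without Cre to 71.8 to 79.1 with Cre. All 3 hearts without Cre read below 5.16, the limit for dim probe sets used below, so no fold is given. Leaving out any single heart kept the difference between 2.51 and 2.69.

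With 16 added to every unlogged signal, a step that shrinks differences between dim values, Nrg1 differed by 1.67 ± 0.11 (SE). On this scale it ranked 115 among the 45037 probe sets ordered from the most raised downward, against 781 on the deposited scale, where many dim probe sets have large and unsteady differences. In the limma fit across all probe sets, Nrg1 was the only 1 of the 18 called at an adjusted p under 0.05, where 0.611% of all probe sets were called. It was the only 1 called with 16 added as well, where 3.27% of all were. Nothing is read from these counts, since the genes were chosen with the comparison known. The call of Nrg1 on the deposited scale was lost without heart aMHC_Cre 1 and with replicate number as a block (limma adjusted p 0.23).

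Several marker lists were higher with Cre beside Nrg1. The widest step was in the list of 5 atrial myocyte genes, with a summed level of 11.64 to 12.20 without Cre and 13.92 to 13.98 with Cre. Of its 3 tested genes 2 rose: Myl7, the atrial regulatory light chain, by 7.30 ± 0.27 (SE) and Nppa, the atrial natriuretic peptide, which stressed ventricles also make, by 2.03 ± 0.17 (limma adjusted p 6.4e-06 and 0.00032). The mean of Myl7 was 3.72 without Cre, under the dim limit of 5.16, and 11.02 with Cre. It therefore passed the limit through the hearts with Cre, and nothing is read from its call. Myl4, the atrial essential light chain, differed by -0.02 ± 0.13, and Sln and Bmp10 were dim. Sums were taken over unlogged signal, so Nppa, the brightest of the 5, largely set the level of this list. Its means were 11.67 without Cre and 13.70 with Cre, beside 11.85 and 13.95 for the list. Of 8 endothelial markers 7 had a higher mean with Cre, with a median difference of 0.12, and none passed (1 at an unadjusted p under 0.05 in limma). Their summed level was 12.25 to 12.58 without Cre and 12.50 to 12.60 with Cre, so the groups overlapped. The largest of these differences was that of Emcn, at 0.46 ± 0.13 (SE; limma adjusted p 0.077), with groups that did not overlap. Pecam1, which encodes an endothelial adhesion molecule, differed by 0.20 ± 0.13, and Cdh5, the endothelial cadherin gene, by 0.12 ± 0.15. Of 3 genes listed for the endocardium, 2 rose: Npr3, the natriuretic peptide clearance receptor, by 1.22 ± 0.14 and Plvap, a protein of endothelial diaphragms, by 1.55 ± 0.12 (limma adjusted p 0.0015 and 0.00020). The summed level of these 3 was 9.04 to 9.09 without Cre and 9.83 to 10.09 with Cre. Of 5 epicardial genes 2 were tested and 3 were dim. Upk1b, a uroplakin, rose by 0.63 ± 0.15 (limma adjusted p 0.041), while Tbx18 differed by 0.03 ± 0.16. The summed levels were 8.26 to 8.44 without Cre and 8.63 to 8.86 with Cre, with Upk1b the brightest of the 5. The part of any of these cells in the result for Nrg1 was not tested.

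**Figure D1:**
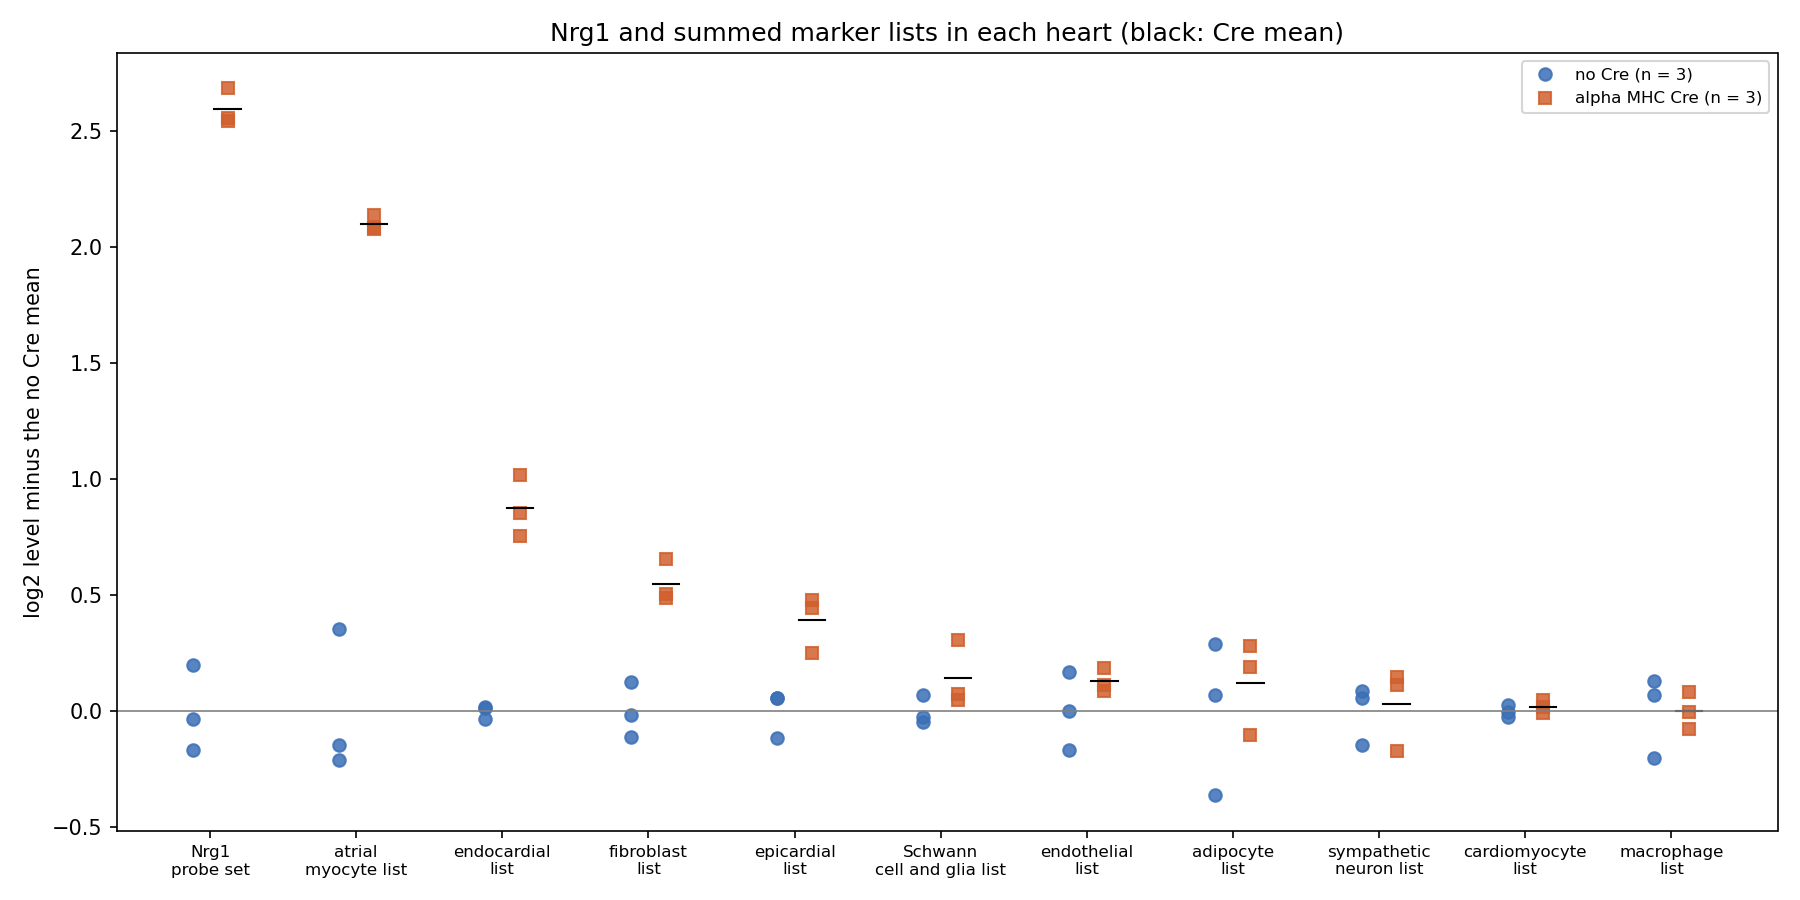
The Nrg1 probe set and the summed signal of 10 marker lists in each heart, as log2 level minus the mean of the 3 hearts without Cre. Circles are hearts without Cre, squares hearts with alpha MHC Cre, and black lines the mean with Cre. Sums are of unlogged signal, so the brightest genes of a list weigh most, as Nppa does in the atrial list. Nrg1 lies 2.59 higher with Cre, the atrial list 2.10, the endocardial list 0.88, the fibroblast list 0.55 and the epicardial list 0.39, while the other 6 lists lie 0.0021 to 0.14 higher.

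The genes most like Nrg1 across the 6 hearts, chosen for Nrg1 after its values were seen, were Fam110c, P3h2 and Scd2. Likeness was the root mean square distance between log2 values centred on each gene's mean, over 12315 tested genes, and these 3 lay at 0.15, 0.15 and 0.16. Fam110c read 5.18 without Cre and 7.78 with Cre, P3h2, a collagen prolyl hydroxylase, 5.23 and 7.72, and Scd2, a fatty acid desaturase, 8.87 and 11.23.

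Btc was dim on both of its probe sets, and both read higher in every heart with Cre. The brighter probe set (1435541_at) was at 4.71, 4.68 and 4.68 without Cre, against 5.20, 5.01 and 4.96 with Cre, a difference of 0.37 ± 0.10 (SE). The hearts without Cre lay within 0.04 of each other there, so that a small step separated the groups. The dimmer probe set (1421161_at) was at 1.51, 2.86 and 3.22 without Cre, against 3.92, 3.24 and 3.39 with Cre. Its gap between the groups was only 0.03, and heart no_Cre 1 alone lay far below the others. The difference there was 0.99 ± 0.49, and 0.48 without no_Cre 1. With 16 added, the differences of Btc shrank to 0.24 ± 0.11 and 0.31 ± 0.14.

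Nrg4, a neuregulin known mainly from fat tissue, showed no common direction over its 2 probe sets. The brighter (1421681_at) was at 5.67, 5.29 and 4.72 without Cre, against 4.83, 4.78 and 4.53 with Cre, so the groups overlapped through heart no_Cre 3. The difference of -0.51 ± 0.26 (SE) ranged from -0.76 without no_Cre 3 to -0.29 without no_Cre 1. The dimmer (1457123_at) differed by 0.13 ± 0.24, and by -0.05 without no_Cre 2. Of the 5 adipocyte markers listed, 3 were named on the array, and their summed level was 6.40 to 7.05 without Cre and 6.66 to 7.04 with Cre.

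Hbegf, a growth factor shed from the cell surface, had overlapping groups on both of its probe sets. One (1418350_at) was at 8.14, 8.17 and 8.03 without Cre, against 7.76, 8.09 and 8.51 with Cre. The hearts with Cre fell on either side of the others, and the difference was 0.01 ± 0.21 (SE), with -0.18 without aMHC_Cre 3 and 0.19 without aMHC_Cre 1. The other (1418349_at) ran from 6.50 to 6.67 without Cre and from 6.60 to 6.84 with Cre, with a difference of 0.09 ± 0.11 that was 0.02 without aMHC_Cre 3 and 0.14 without aMHC_Cre 2.

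**Figure D2:**
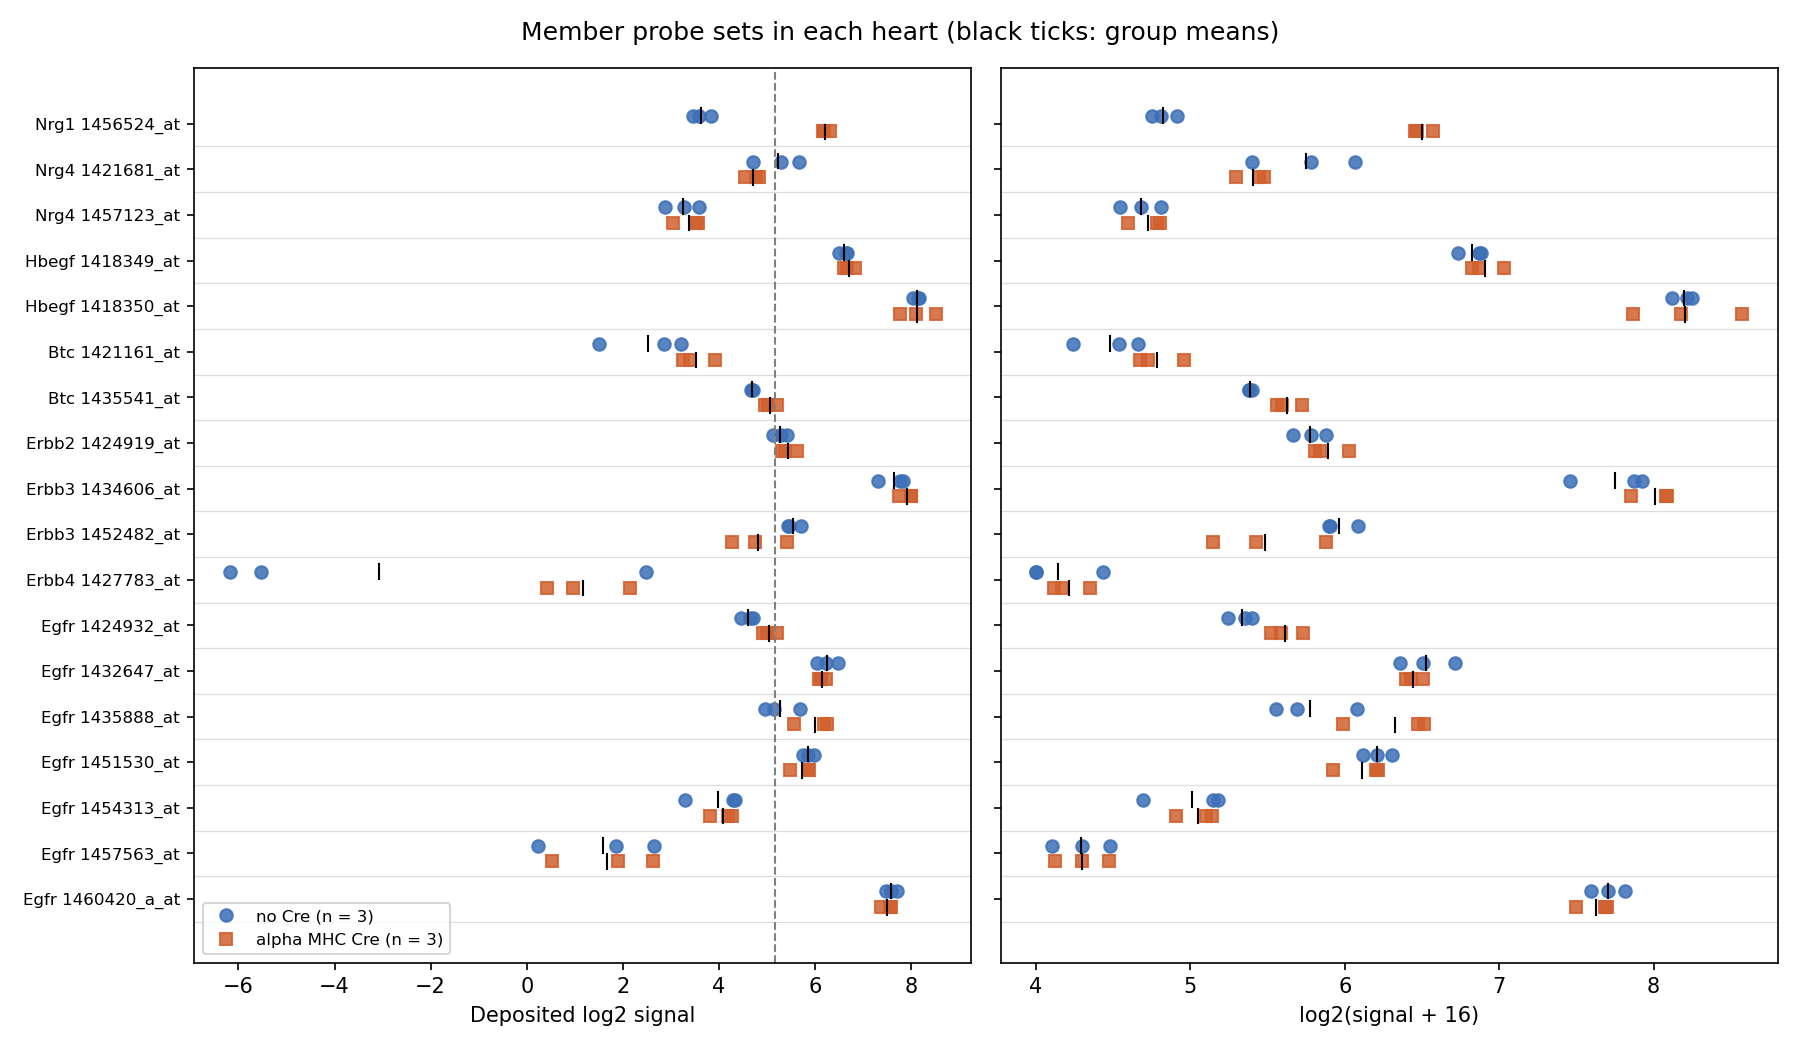
Signal of the 18 probe sets in each heart, on the deposited log2 scale (left) and as log2 of the signal plus 16 (right), with circles for the 3 hearts without Cre, squares for the 3 with alpha MHC Cre and black ticks for group means. The dashed line marks 5.16, the mean under which probe sets counted as dim. Nrg1 crosses from below this line to above it with Cre, and the wide scatter of Erbb4 on the left is gone on the right.

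Erbb4, the cardiomyocyte receptor for neuregulin 1, could not be measured well on this array. Its single probe set (1427783_at) was at 2.49, -5.53 and -6.18 without Cre, against 0.96, 2.14 and 0.42 with Cre. The groups overlapped, and on the unlogged scale all 6 hearts lay between 0.01 and 5.61 units, at the bottom of the scale. The log2 difference of 4.25 ± 2.43 (SE) therefore rested on 2 values near zero: with 16 added it was 0.07 ± 0.14. Without 1 heart it ran from 2.69 (no_Cre 3) to 7.03 (no_Cre 1).

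Erbb2, the partner of ErbB4, had a single probe set (1424919_at) that was at 5.42, 5.12 and 5.28 without Cre, against 5.32, 5.62 and 5.37 with Cre. The groups overlapped, with a difference of 0.16 ± 0.14 (SE) that ranged from 0.07 without aMHC_Cre 2 to 0.23 without no_Cre 1.

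Erbb3 gave opposite readings from its 2 probe sets. The brighter (1434606_at) was at 7.82, 7.32 and 7.77 without Cre, against 7.99, 7.75 and 8.00 with Cre, with overlapping groups and a difference of 0.28 ± 0.17 (SE) that was 0.12 without no_Cre 2. The dimmer (1452482_at) was at 5.45, 5.46 and 5.70 without Cre, against 5.42, 4.28 and 4.76 with Cre. There the groups did not overlap, but by a gap of 0.02 only, since heart aMHC_Cre 1 lay next to the hearts without Cre. The difference of -0.71 ± 0.30 moved to -1.02 without aMHC_Cre 1 and to -0.44 without aMHC_Cre 2. The transcripts of Erbb3 that each probe set covers were not looked up here.

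Schwann cell and glial markers, listed because these cells carry much ErbB3, had means of 4.57 to 6.37 without Cre, near the dim limit. Of 8 listed genes 6 were named and 5 tested: Ngfr, the low-affinity neurotrophin receptor, fell by 0.67 ± 0.14 (SE; limma adjusted p 0.027) and none rose (1 was higher at an unadjusted p under 0.05). Sox10, the transcription factor of these cells, differed by 0.26 ± 0.12 and S100b, a glial calcium-binding protein, by 0.40 ± 0.13. The summed level was 8.41 to 8.53 without Cre and 8.51 to 8.76 with Cre, and its part in the readings of Erbb3 was not tested.

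Egfr, the receptor of Hbegf and betacellulin among others, had 7 probe sets, and they did not share a direction: 4 had a higher and 3 a lower mean with Cre. The brightest (1460420_a_at) was at 7.59, 7.71 and 7.47 without Cre, against 7.36, 7.56 and 7.58 with Cre, a difference of -0.08 ± 0.12 (SE) with overlapping groups. The largest difference was that of 1435888_at, at 0.73 ± 0.28, with 4.95, 5.15 and 5.69 without Cre, against 6.19, 6.24 and 5.57 with Cre. Hearts no_Cre 3 and aMHC_Cre 3 crossed there, and the difference was 0.95 without either of them.

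A dimmer probe set of Egfr (1424932_at) was at 4.71, 4.64 and 4.46 without Cre, against 5.00, 5.21 and 4.91 with Cre, with groups that did not overlap and a difference of 0.44 ± 0.13 (SE). The remaining 4 probe sets of Egfr differed by -0.13 to 0.11, each with overlapping groups. Of 7 fibroblast markers, a cell type in which Egfr is also expressed, 4 rose (Lum, Dpt, Col1a1 and Col1a2), and the summed level was 13.38 to 13.62 without Cre and 13.98 to 14.15 with Cre. The part of these cells in the readings of Egfr was not tested.

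By the rule for near neighbours, the genes most like the Egfr probe set with the largest difference were Ttll7, a tubulin-modifying enzyme, at a distance of 0.13, Zfp991 at 0.14 and Rgs17, a regulator of G protein signalling, at 0.15. They differed by 0.64, 0.78 and 0.81.

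**Figure D3:**
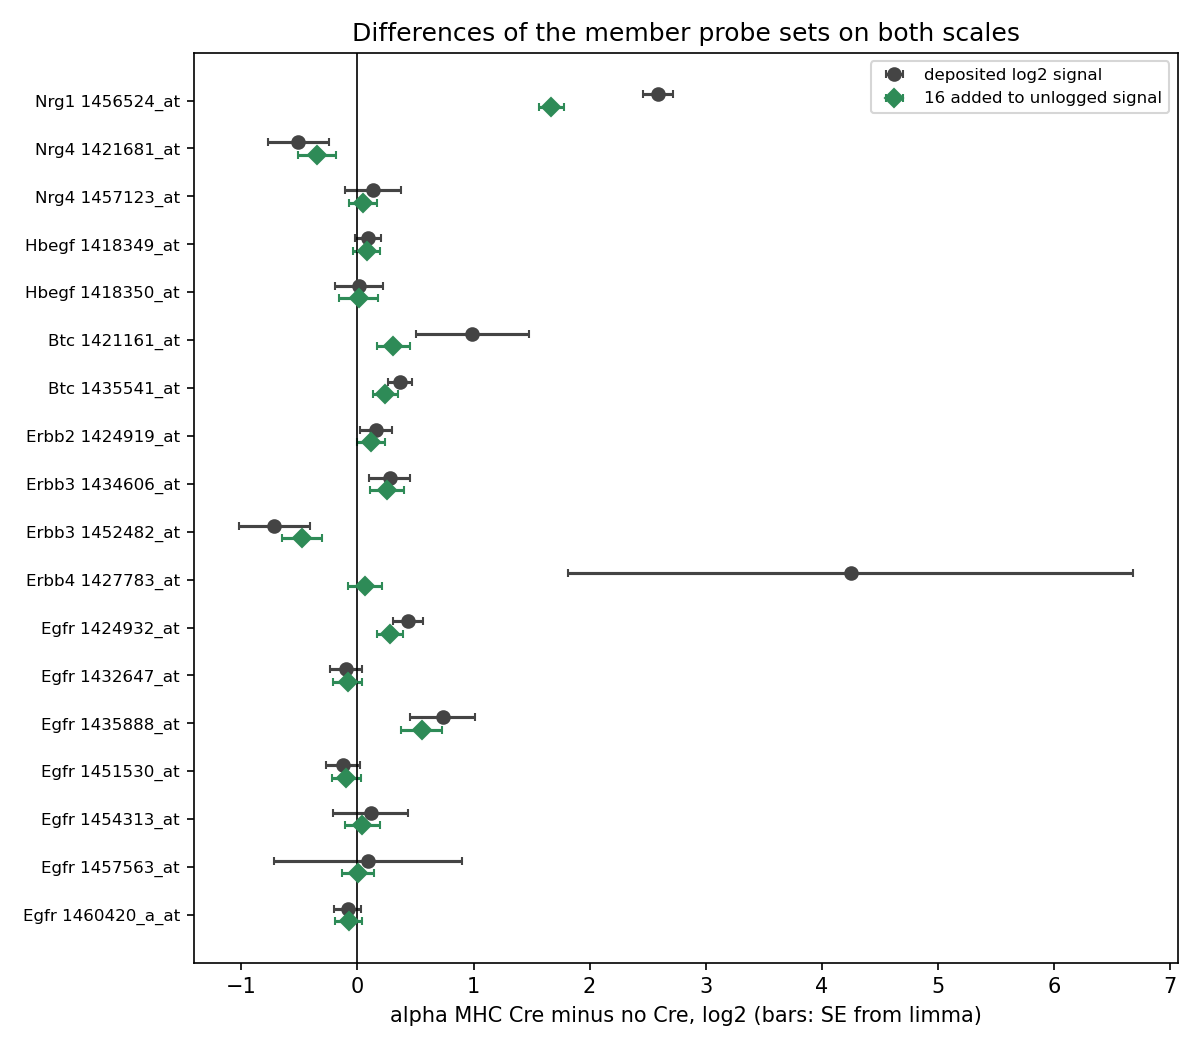
Difference between hearts with alpha MHC Cre and hearts without Cre for each of the 18 probe sets, on the deposited log2 scale (dots) and with 16 added to the unlogged signal (diamonds), with bars for the SE from limma. Nrg1 stays at 1.67 with 16 added, while Erbb4 goes from 4.25 to 0.07.

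In the limma fit that leaves out the 40% of probe sets with the lowest mean, 9 of the 18 were tested: both of Hbegf, 4 of Egfr, both of Erbb3 and that of Erbb2. The 9 others, Nrg1 and Btc among them, fell under the limit, a mean of 5.16. None of the 9 tested was called (2 had an unadjusted p under 0.05), where 5.23% of the 27022 tested probe sets were. Leaving out aMHC_Cre 1 called 1 of them (Erbb3 1452482_at), as did leaving out aMHC_Cre 3 (Egfr 1435888_at). In those runs 923 and 905 of the 27022 were called. Each time the heart left out was the one with Cre nearest the hearts without Cre, so nothing is read from these calls. The Erbb3 probe set, with means of 5.53 without Cre and 4.82 with Cre, passed the limit through the hearts without Cre.

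The wider pathway was read from 79 other genes listed by role, of which 65 were tested, each through its brightest probe set, and 14 were not analysed here. In the hearts with Cre 4 rose (Adam19, Cd44, Gab2 and Spry4) and 0 fell (3 at an unadjusted p under 0.05) in limma, beside 6.24% called of 13062 tested genes (4.2% higher and 2.04% lower). The median difference over the list was 0.08, against -0.01 over all tested genes. Without aMHC_Cre 1 or without aMHC_Cre 2 the count was 2, with Adam19 and Cd44 still called.

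Among 9 genes of ligand shedding, Adam19 rose. It encodes a metalloprotease of the ADAM family that can cleave the neuregulin 1 precursor. It was at 6.78, 6.76 and 6.98 without Cre, against 7.97, 8.05 and 8.07 with Cre. The groups were far apart, with a rise of 1.19 ± 0.12 (SE; limma adjusted p 0.00073), and its other probe set rose by 1.42 ± 0.15 (0.00091). That other probe set was at 4.55, 4.75 and 5.04 without Cre, against 6.35, 6.13 and 6.14 with Cre. It passed the dim limit of 5.16 through the hearts with Cre, so nothing is read from its call. The other 8 did not pass. Adam10, a broad sheddase, differed by 0.39 ± 0.13 and Adam17, the main sheddase of several EGF-family ligands, by 0.19 ± 0.13. Bace1, the protease that processes neuregulin 1 in nerve, differed by -0.04 ± 0.18.

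Cd44, a hyaluronan receptor that can associate with ErbB receptors, was the only 1 of 5 tested partners and chaperones to rise. It was at 8.19, 8.03 and 7.91 without Cre, against 9.43, 9.14 and 9.16 with Cre, a rise of 1.20 ± 0.13 (SE; limma adjusted p 0.0014) between groups that did not overlap. All 3 tested probe sets of Cd44 rose, by 1.02 to 1.20. The dimmest of them was at 5.08, 5.19 and 4.70 without Cre, against 6.11, 5.95 and 5.97 with Cre. It passed the dim limit of 5.16 through the hearts with Cre, so nothing is read from its call. Hsp90aa1, a chaperone on which ErbB2 depends, differed by 0.41 ± 0.13 without passing, but passed with trend and robust variances (limma adjusted p 0.024). Cd44 and Adam19 are also made by fibroblasts and immune cells. The fibroblast list moved as given above, and 6 macrophage markers had a median difference of 0.02 with summed levels of 11.58 to 11.92 without Cre and 11.71 to 11.87 with Cre. Single macrophage markers moved in both directions, Cd68 by 0.22 ± 0.11 and Cd14 by -0.33 ± 0.14. None of the 6 passed (1 at an unadjusted p under 0.05 in limma). The part of these cells in the rises of Cd44 and Adam19 was not tested.

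Of 11 tested adaptors and kinases that act at the receptor, Gab2, a docking protein, rose by 0.67 ± 0.15 (SE; limma adjusted p 0.034). It was at 8.37, 8.48 and 8.84 without Cre, against 9.34, 9.27 and 9.10 with Cre. Its other 2 probe sets differed by -0.20 ± 0.17 and -0.06 ± 0.12 and did not pass. The call was lost when any heart but no_Cre 3 was left out. In separate runs on all 6 hearts it was also lost when the probe sets of Gab2 were averaged (a difference of 0.14, limma adjusted p 0.56). The same held with dim probe sets kept in the fit (0.18). The adaptor Grb2 differed by 0.29 ± 0.15 and the phosphatase gene Ptpn11 by 0.20 ± 0.12.

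Among 18 negative regulators, Spry4, an inhibitor of the Ras to Erk pathway that is itself induced by it, rose by 1.51 ± 0.30 (SE; limma adjusted p 0.023). It was at 7.33, 5.95 and 6.90 without Cre, against 8.40, 8.32 and 7.98 with Cre, so that no heart with Cre was as low as any without. Its other tested probe set rose by 1.10 ± 0.20 (0.013). The call on the brighter probe set was lost without aMHC_Cre 1 (0.083) or aMHC_Cre 2 (0.10), with trend and robust variances (0.058) and with dim probe sets kept in the fit (0.20). Errfi1, which binds and inhibits ErbB kinases, differed by 0.27 ± 0.39, and Lrig1, which promotes receptor breakdown, by -0.46 ± 0.15, and neither passed. Dusp6 and Spry1, other feedback inhibitors, differed by 0.55 ± 0.21 and 0.46 ± 0.18 without passing, though Dusp6 passed without no_Cre 3 (limma adjusted p 0.048).

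The remaining role groups had no gene past the threshold. Of 4 tested other ligands of the family (2 with an unadjusted p under 0.05, 1 higher and 1 lower), Egf was at 6.31, 6.04 and 6.56 without Cre, against 5.86, 5.56 and 5.92 with Cre, a difference of -0.52 ± 0.16 (SE; limma adjusted p 0.12). Ereg differed in the other direction, by 0.51 ± 0.21 (limma adjusted p 0.24) with overlapping groups, and passed without no_Cre 2 (0.035). Of 10 genes in the PI3K to Akt arm (1 at an unadjusted p under 0.05), the kinase gene Akt1 differed by 0.48 ± 0.14 (adjusted p 0.087). Akt1 passed with quantile normalization (limma adjusted p 0.047) and with trend and robust variances (0.022), and averaged over its probe sets it differed by 0.23 (0.32). Of 5 in the Ras to Erk cascade (0 at an unadjusted p under 0.05), Nras differed by 0.28 ± 0.14 (0.34). Of 3 Stat factors (1 at an unadjusted p under 0.05), Stat5a differed by -0.49 ± 0.12 (0.056), and it passed in 4 of the alternatives.

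**Figure D4:**
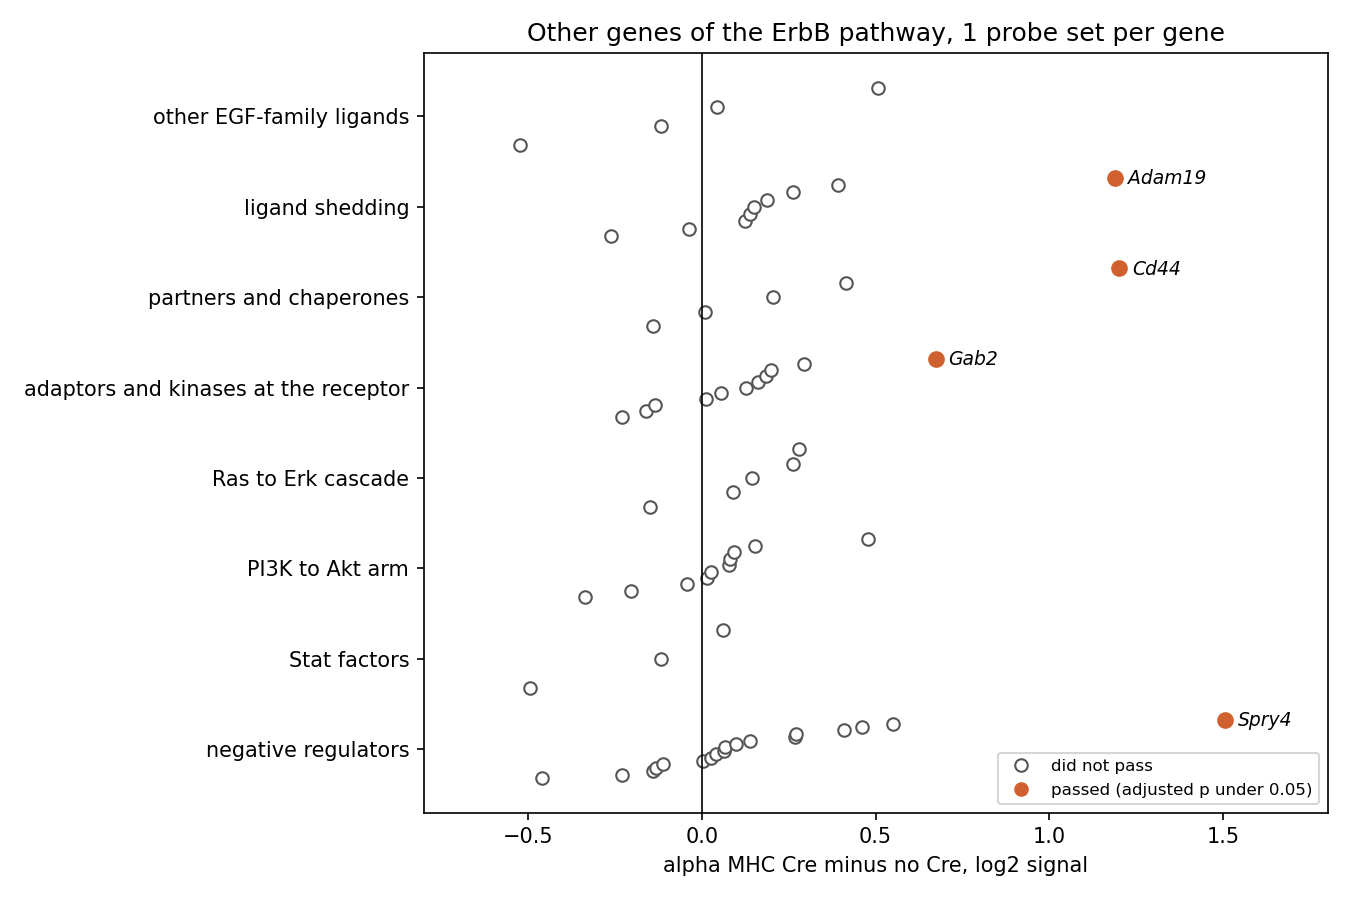
Difference in log2 signal between hearts with alpha MHC Cre and hearts without Cre for the 65 tested pathway genes, 1 point per gene in 8 role groups. Filled points passed an adjusted p under 0.05 in limma: Adam19 (1.19), Cd44 (1.20), Gab2 (0.67) and Spry4 (1.51); open points did not.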

How the data were processed

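Gene expression was measured on 1 Affymetrix array per heart. The authors deposited a table of signals made with PLIER, a method that summarises the probes of a probe set, per the submitters' processing notes. Its settings and how arrays were normalized are details not given in the sources used here. The deposited values are on a log2 scale, with base 2 inferred from their range (maxima 13.97 to 14.00, and 749 to 902 values below 0 per array). Array medians differed by less than 0.1, so no further normalization was done. The annotation names 932 probe sets with several symbols and 9160 with none, and these were not used for genes. The members, lists, alternatives and naming rules were chosen with earlier results of these data known.

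After leaving out 64 control probe sets, limma 3.58.1 (R 4.3.3) was used to compare the groups (two-sided, no covariates, Benjamini-Hochberg adjusted p under 0.05). This was done without the 40% dimmest probe sets (27022 tested) and on all 45037. Member values, SE and dim probe sets come from the latter, pathway genes and markers from the former. The titles call the hearts biological replicates. Named were all 8 genes, every pathway gene past the threshold, examples per role group, and near neighbours; pathway genes that did not pass, except the 1 with the lowest adjusted p in a role group without calls, were picked for their role after their values were seen. The fit was tested on simulated data, where 20 of 215 calls were false at the threshold of 0.05. There 95% of the added 2-fold and 100% of the added 4-fold differences were recovered. Alternatives were quantile normalization, other filters, 16 added, trend and robust variances, a replicate block, the mean over probe sets and leaving out each heart. A further marker list was sympathetic neuron (0 of 5 called, 1 at an unadjusted p under 0.05 in limma).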

Additional observations from a re-analysis of the deposited data

How the results depend on the processing

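The number of arrays limits precision here, and dim probe sets most. Nrg1 read higher with Cre, by 1.67 to 2.69, in every alternative run. The differences of the brightest probe set of Btc, Nrg4, Erbb2 and Erbb3 kept their sign in every alternative run on that probe set, and those of Hbegf and Egfr stayed near 0 (-0.18 to 0.19 and -0.14 to -0.01). With 16 added the difference was 1.67 for Nrg1, 0.24 for Btc and 0.07 for Erbb4. Averaged over probe sets it was 0.68 for Btc, 0.15 for Egfr and -0.22 for Erbb3, where the brightest alone gave 0.37, -0.08 and 0.28. Of all tested probe sets 1412 were called, 275 of 45037 without a filter, and 600 to 1075 when 1 heart was left out (600 without aMHC_Cre 2, 905 without aMHC_Cre 3, 913 without no_Cre 1 and 923 without aMHC_Cre 1). Of the member probe sets 0 were called with the filter on dim probe sets, 1 without a filter, 1 with 16 added and no filter, and 0 to 1 when 1 heart was left out. Leaving out hearts in the fit of all probe sets was chosen after seeing the data, and there the 1 call (Nrg1) became 0 without aMHC_Cre 1. Of the pathway genes 4 were called, 2 without a filter, 6 with quantile normalization, 6 with trend and robust variances (Akt1 in both) and 2 to 5 when 1 heart was left out, with 2 without aMHC_Cre 1 or aMHC_Cre 2. None was lower in the fit as reported, also when 1 heart was left out (0 to 0), but 1 (Stat5a) was with quantile normalization, with the 60% dimmest left out, with 16 added and with trend and robust variances. The cause of these shifts was not tested.

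Hearts with the same replicate number showed no common deviation (correlations of -0.06, 0.21 and -0.19). With 3 hearts per group, centred on the group mean, these values cannot exclude that the numbers pair the hearts. With the replicate block, 909 probe sets were called, 0 member probe sets with or without the filter (so Nrg1 was not called in the fit of all), and 3 pathway genes (Gab2, at a limma adjusted p of 0.10, was not).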
